A study of Mus musculus with 31 samples.

Results

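The pro-apoptotic members of the BCL2 family were followed here at the level of RNA: Bcl2l11, Bid, Bbc3, Pmaip1, Bmf, Bad, Bik, Bak1, Bok and Bax, 10 genes taken as a list by name, with every probe set of each gene read separately. The annotation of the array names 21 probe sets for 9 of these 10 genes, out of 45100 probe sets with values for 18193 named genes. Of the 21 probe sets, 20 were bright enough to be tested. The probe set left out, Bmf 1422995_at, averaged 3.46 on the log2 scale against a minimum of 3.56. The annotation used here lists Bax for no probe set, alone or with other genes, but leaves 9211 probe sets without a gene, and the level of Bax was not analysed here.

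BCL2 family proteins decide whether the outer mitochondrial membrane is opened in a cell under stress. The effectors Bak1, Bax and Bok form the pores, the BH3-only proteins switch the effectors on or bind and block the anti-apoptotic members, and the pores let cytochrome c out to activate caspases. In the thymus the BH3-only protein Bim, encoded by Bcl2l11, is best known for the death of self-reactive thymocytes, and Puma and Noxa, encoded by Bbc3 and Pmaip1, for the response to DNA damage through p53.

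RNA was hybridised to 31 Affymetrix arrays of mouse probe sets. The tumors were thymic tumors of C57BL/6 mice given 100 mg/kg of N-ethyl-N-nitrosourea (ENU, an alkylating mutagen), taken when they developed or at 9 months: 7 from NDR1-/- (KO) mice, 6 female and 1 male, 7 from NDR1+/- (HT) mice, 6 female and 1 male, and 5 from NDR1+/+ (WT) mice, all female. The thymi were untreated and normal: 4 each from KO, HT and WT mice of the same strain, 2 female and 2 male per genotype. NDR1 is the serine/threonine kinase encoded by Stk38. How the NDR1 allele was made, the ages of the mice and which arrays, if any, share an animal are not given in the sources used here, so p-values measure the spread between these arrays. The sample titles speak of thymocytes or tumor cells, the tissue label of thymus.

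Values are log2(intensity + 1), the deposited linear intensities with 1 added before the logarithm, and a difference of 1 is a doubling. They are set side by side only within a probe set. Of 10 double-positive thymocyte markers, 9 had a probe set, and their mean was 7.49 to 12.02 in tumors and 12.66 to 12.87 in thymi. The pan-T cell mean was 11.50 to 12.55 in tumors and 13.20 to 13.46 in thymi, and the fibroblast mean 4.82 to 10.20 in tumors and 4.05 to 5.94 in thymi. The 3'/5' ratio of the actin and Gapdh control probe sets, a measure of how far label reached towards transcript 5' ends, was 0.18 to 4.87 (log2) in tumors and 0.26 to 0.50 in thymi, and 15 of 19 tumors exceeded every thymus. Stk38 1416252_at was 10.92 ± 0.329 in KO, 11.44 ± 0.115 in HT and 11.86 ± 0.148 in WT thymi (SD, n = 4 each), and in tumors 11.09 ± 1.89 in KO, 11.77 ± 0.755 in HT and 12.15 ± 0.724 in WT (n = 7, 7 and 5), with overlapping ranges. The other Stk38 probe sets did not follow the label in this way. Stk38 1439938_at was 9.10 ± 0.319 in KO, 8.80 ± 0.502 in HT and 8.83 ± 0.313 in WT thymi, and the dim 1431303_at was 4.20 ± 0.175 in KO, 4.30 ± 0.0754 in HT and 4.30 ± 0.172 in WT thymi. Which of them, if any, lies in the altered part of the gene is not given.

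Tumors and thymi were compared first, as the mean difference over the 3 genotypes with sex as a covariate, by limma on all 33825 probe sets above the minimum, with Benjamini-Hochberg adjustment over all of them. Among the pro-apoptotic probe sets, 6 of 20 passed an adjusted p of 0.05, 3 higher and 3 lower in tumors. Over all probe sets 20.9% passed, 8.96% higher and 12% lower, so a share of 6 in 20 is not far from the background. The called probe sets went both ways. Bid and the brighter Bak1 probe set were higher, Bad 1416583_at and Bcl2l11 1435449_at were lower, and a dim second Bak1 probe set was lower. The median difference over the 20 probe sets was -0.07, and over all probe sets 0.02.

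**Figure D1:**
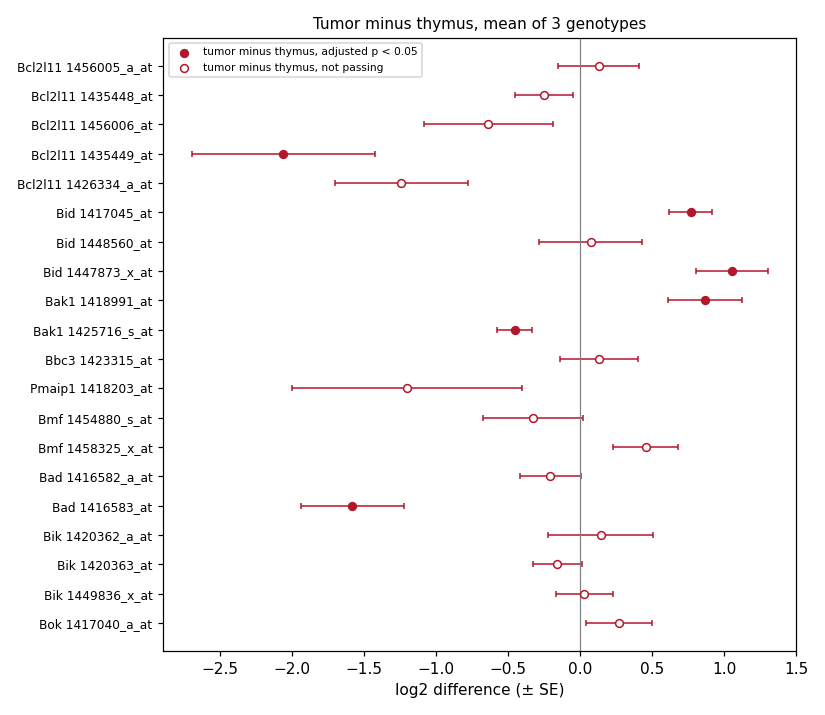
Tumor minus thymus differences, in log2 units with standard errors, for the 20 tested probe sets of pro-apoptotic BCL2 family genes, filled where the adjusted p was under 0.05. Filled points lie on both sides of 0, from -2.06 for Bcl2l11 1435449_at to 1.05 for Bid 1447873_x_at.

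Among the BH3-only activators, Bid was higher in tumors by 2 of its 3 probe sets. Its protein is cut by caspase-8 and links death receptors to mitochondria. Bid 1417045_at measured 10.48, 11.22 and 11.67 (lowest, median, highest) in KO tumors, the same 3 values being 10.27, 11.04 and 11.46 in HT tumors, while the 5 WT tumors measured 10.80, 10.96, 11.20, 11.57 and 11.70. The thymi measured 10.32, 10.34, 10.46 and 10.54 in KO mice, 10.30, 10.37, 10.38 and 10.42 in HT mice, and 10.20, 10.39, 10.44 and 10.46 in WT mice. Thus 16 of 19 tumors lay above every thymus, and the other 3 lay within the thymus range. The difference was 0.77 (SE 0.150), or 1.7-fold, with a limma adjusted p of 0.00064. Ordered by mean, the groups ran WT tumor 11.25 ± 0.383, KO tumor 11.09 ± 0.469, HT tumor 10.93 ± 0.440, KO thymus 10.42 ± 0.103, WT thymus 10.37 ± 0.121 and HT thymus 10.37 ± 0.0508 (SD). Within a tissue the neighbouring genotypes overlapped, and the step in this order was between tissues.

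The other Bid probe sets differed from each other. Bid 1447873_x_at ranged over 5.23 to 7.64 in tumors and 4.97 to 6.00 in thymi, with 13 of 19 tumors above every thymus, and was higher in tumors by 1.05 (SE 0.250, limma adjusted p 0.00378). Over the 19 tumors its relation to the 3'/5' ratio did not pass (Pearson r 0.486, adjusted permutation p 0.0969 over 20 probe sets). Nor did it by rank (Spearman rho 0.433, adjusted permutation p 0.13). Bid 1448560_at spread over 6.07 to 10.15 in tumors and 7.57 to 8.13 in thymi, so that tumors lay on both sides, 8 above and 10 below every thymus, with a difference of 0.07 (SE 0.358, adjusted p 0.909). Over the 19 tumors Bid 1448560_at fell with the 3'/5' ratio (Pearson r -0.683, adjusted permutation p 0.00727 over 20 probe sets; Spearman rho -0.807, adjusted p 0.0004; r -0.740 without the 2 tumors of most distant ratio), while Bid 1417045_at had r of -0.0016 (adjusted p 0.995; rho -0.0982, adjusted p 0.762; r -0.0716 without 2).

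Bcl2l11, whose 5 probe sets lie in 1 gene on chromosome 2, gave different results by probe set. Bcl2l11 1435449_at measured 4.48, 5.87 and 9.51 (lowest, median, highest) in KO tumors, with 3.06, 7.74 and 8.91 in HT tumors, while WT tumors measured 3.94, 5.12, 5.56, 7.63 and 8.79. KO thymi measured 8.69, 8.75, 8.79 and 8.81, HT thymi 8.59, 8.60, 8.85 and 9.24, and WT thymi 8.47, 8.96, 8.97 and 9.13. The thymi sat within a narrow band, 15 of 19 tumors lay below all of them and 1, KO tumor 05, above. The probe set was lower in tumors by a log2 difference of -2.06 (SE 0.634), 4.18-fold, with a limma adjusted p of 0.0218.

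This Bcl2l11 value moved with the 3'/5' ratio. Over the 19 tumors r was -0.807 (adjusted permutation p 0.0002 over 20 probe sets, from the smallest p, 1e-05, that 100000 permutations can give; rho -0.844, adjusted p 0.0003; r -0.843 without 2 tumors). With the ratio as a covariate the tumor difference was -0.93 and no longer passed (adjusted p 0.125), and without the array of WT thymus F_01 the adjusted p was 0.0505. The pan-T cell and fibroblast marker means also differed between the tissues, as given above, and their part in the result was not tested. In these bulk samples fewer cells of a type and less RNA per cell cannot be told apart.

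The 4 other Bcl2l11 probe sets did not pass. Bcl2l11 1456005_a_at was 10.55 to 13.50 in tumors and 11.80 to 12.35 in thymi, with a difference of 0.13 (SE 0.280, adjusted p 0.783). Bcl2l11 1435448_at was 9.47 to 11.62 in tumors and 10.41 to 10.77 in thymi (difference -0.25, adjusted p 0.387), and 1456006_at 3.72 to 9.35 in tumors and 8.30 to 9.01 in thymi (difference -0.64, adjusted p 0.331). Both spread to either side of the thymi. Bcl2l11 1426334_a_at was 3.43 to 8.85 in tumors and 5.07 to 6.42 in thymi, and its difference of -1.24 (SE 0.463) had an adjusted p of 0.0564. Here 15 of 19 tumors lay below every thymus, and 2, KO tumor 05 at 8.85 and HT tumor 06 at 7.12, lay above. Without KO tumor 05 the difference was -1.42 (adjusted p 0.000769), without HT tumor 06 -1.34 (0.025) and without WT tumor 03 -1.32 (0.0441). These 3 tumors had the lowest 3'/5' ratios, 0.18, 0.19 and 0.25.

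Bbc3 1423315_at, for Puma, a BH3-only protein that acts on nearly all anti-apoptotic members, did not separate the tissues. It was 5.64 to 9.03 in tumors and 6.29 to 7.11 in thymi, with 9 tumors above and 3 below every thymus. The difference was 0.13 (SE 0.270, limma adjusted p 0.765).

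**Figure D2:**
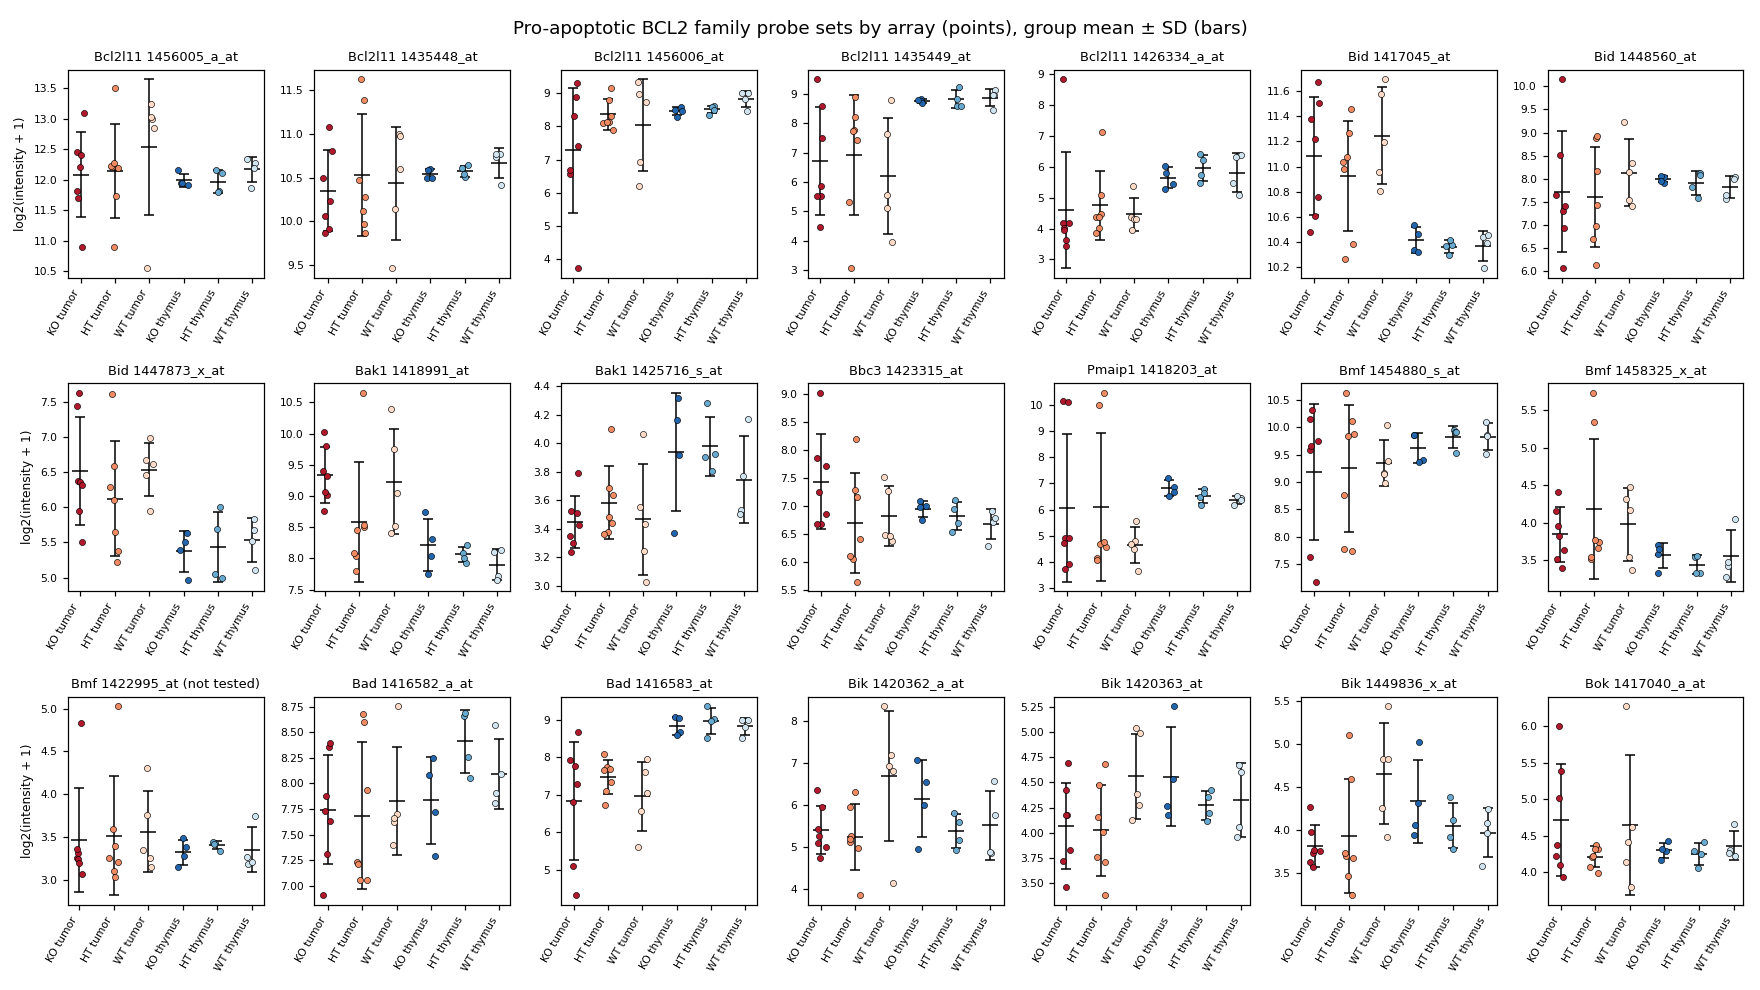
Log2(intensity + 1) of each of the 21 probe sets in each array, in KO, HT and WT tumors and then KO, HT and WT thymi, with bars for the group mean and SD and a separate vertical scale per panel. Thymus values cluster tightly in most panels while tumors spread, and Pmaip1 shows 4 tumors near 10 apart from 15 below 5.6.

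Of the sensitizer BH3-only genes, Pmaip1 split the tumors into 2 sets. It encodes Noxa, which binds the anti-apoptotic protein Mcl1. Pmaip1 1418203_at measured 10.14 and 10.10 in KO tumors 04 and 06, and 10.46 and 9.98 in HT tumors 03 and 01. The other 15 tumors, all 5 WT tumors among them, measured 3.65 to 5.56, and the thymi 6.52 to 7.21 in KO mice, 6.17 to 6.76 in HT mice and 6.17 to 6.52 in WT mice. So 4 tumors lay above every thymus, 15 below, none between, and the 2 sets of tumors were 4.43 apart. Over all 19 tumors the difference from thymus was -1.21 (SE 0.798, limma adjusted p 0.296).

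The same 4 tumors had the highest mean of 7 B and plasma cell markers (of 8 listed), 10.50 to 12.40, against 4.35 to 9.38 in the other tumors and 5.72 to 7.06 in thymi. The lowest value of any probe set in any array was 2.34, so no marker could be at 0 here. Pax5 was low in most arrays, with medians of 3.29 in tumors and 3.08 in thymi. Ms4a1 and Cd79a reached 13.29 and 13.87 in tumors, with highest thymus values of 6.86 and 6.15. Cd79b and Jchain reached 14.05 and 14.31 in tumors, with highest thymus values of 9.73 and 12.54. Over all tumors the difference from thymus was positive for Ms4a1, Cd79a, Pax5, Ebf1 and Blnk. It was negative for Cd79b (-1.19) and Jchain (-1.03), and it passed for none of them (limma adjusted p at least 0.187). Markers of mature single-positive T cells averaged 11.61 to 12.25 in the 4 tumors and 5.63 to 9.74 in the other 15, and those of dividing cells 9.23 to 10.62 in the 4 and 11.06 to 12.64 in the 15. Other cell type lists set the 4 apart as well. Neutrophil markers averaged 8.04 to 9.76 in the 4 tumors and 3.78 to 6.87 in the other 15, NK and cytotoxic cell markers 7.15 to 9.39 in the 4 and 5.12 to 6.77 in the 15, and fibroblast markers 4.82 to 6.15 in the 4 and 6.45 to 10.20 in the 15. The part of B cells or of any of these cell types in the Pmaip1 values was not tested.

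Bmf and Bid marked the same 4 tumors from the other side. Bmf, a BH3-only protein held at the cytoskeleton, had 7.18 to 7.77 for 1454880_s_at in the 4 tumors, 8.77 to 10.63 in the other 15 and 9.37 to 10.10 in thymi. Bid 1417045_at was 10.27 to 10.61 in the 4 tumors, 10.76 to 11.70 in the other 15 and 10.20 to 10.54 in thymi. In the other 18 probe sets the 4 tumors overlapped the rest. These 3 patterns are given as descriptions, with no test, since the 4 tumors were picked by marker values from the same arrays. How many of all probe sets separate the 4 tumors from the other 15 was not counted. The 3 patterns are therefore not shown to be particular to this family.

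**Figure D3:**
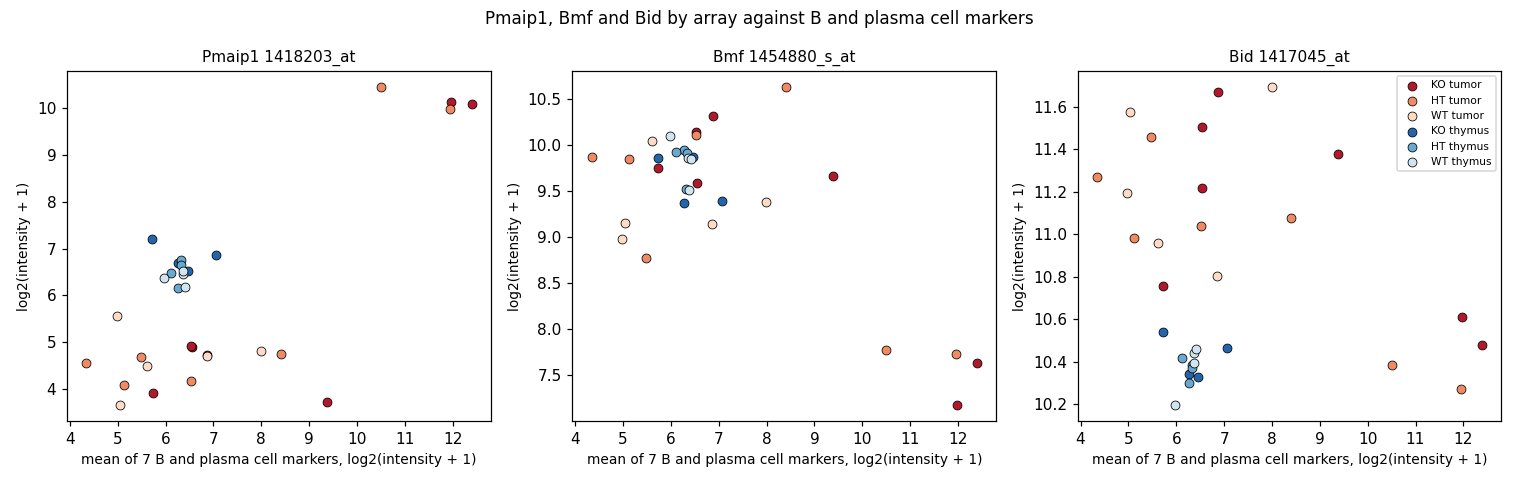
Pmaip1, Bmf and Bid values, log2(intensity + 1), of the 31 arrays against the mean log2 value of 7 B and plasma cell markers, coloured by genotype and tissue. The 4 tumors at the right, with marker means of 10.50 to 12.40, are the highest for Pmaip1, the lowest for Bmf and the lowest tumors for Bid.

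Over all tumors Bmf 1454880_s_at did not pass, with a difference of -0.33 (SE 0.346, limma adjusted p 0.529). Bmf 1458325_x_at was 3.37 to 5.73 in tumors and 3.27 to 4.05 in thymi, with a difference of 0.45 (SE 0.226, adjusted p 0.158). This dim probe set rose over tumors with the 3'/5' ratio (r 0.836, adjusted permutation p 0.0011; rho 0.730, adjusted p 0.00196; r 0.706 without 2 tumors). The untested Bmf 1422995_at was 3.04 to 5.03 in tumors and 3.16 to 3.75 in thymi.

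Bad, the BH3-only protein that growth factor signalling holds off mitochondria by phosphorylation, was lower in tumors by 1 of its 2 probe sets. Bad 1416583_at measured 4.32, 7.29 and 8.68 (lowest, median, highest) in KO tumors, with 6.74, 7.67 and 8.09 in HT tumors, while WT tumors measured 5.59, 6.56, 7.05, 7.61 and 7.97. KO thymi measured 8.60, 8.68, 9.05 and 9.07, HT thymi 8.53, 8.97, 9.02 and 9.37, and WT thymi 8.52, 8.82, 9.01 and 9.01. All but KO tumor 05 lay below every thymus, 18 of 19. The log2 difference was -1.58 (SE 0.359, limma adjusted p 0.00255).

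Bad 1416583_at also fell over tumors as the 3'/5' ratio rose (r -0.615, adjusted permutation p 0.0446; rho -0.881, adjusted p 0.0002; r -0.767 without 2 tumors). It passed when the ratio was fitted too and in each other setting run, with differences of -1.79 to -1.10 and adjusted p of at most 0.0328. Bad 1416582_a_at was 6.91 to 8.76 in tumors and 7.29 to 8.68 in thymi, with 5 tumors below and 1 above every thymus. The difference was -0.21 (SE 0.212, limma adjusted p 0.516). The 2 Bad probe sets did not follow each other over the tumors (r 0.209, adjusted permutation p 0.47 over 19 pairs of probe sets; rho 0.0439, adjusted p 0.858; r 0.267 without 2 tumors).

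**Figure D4:**
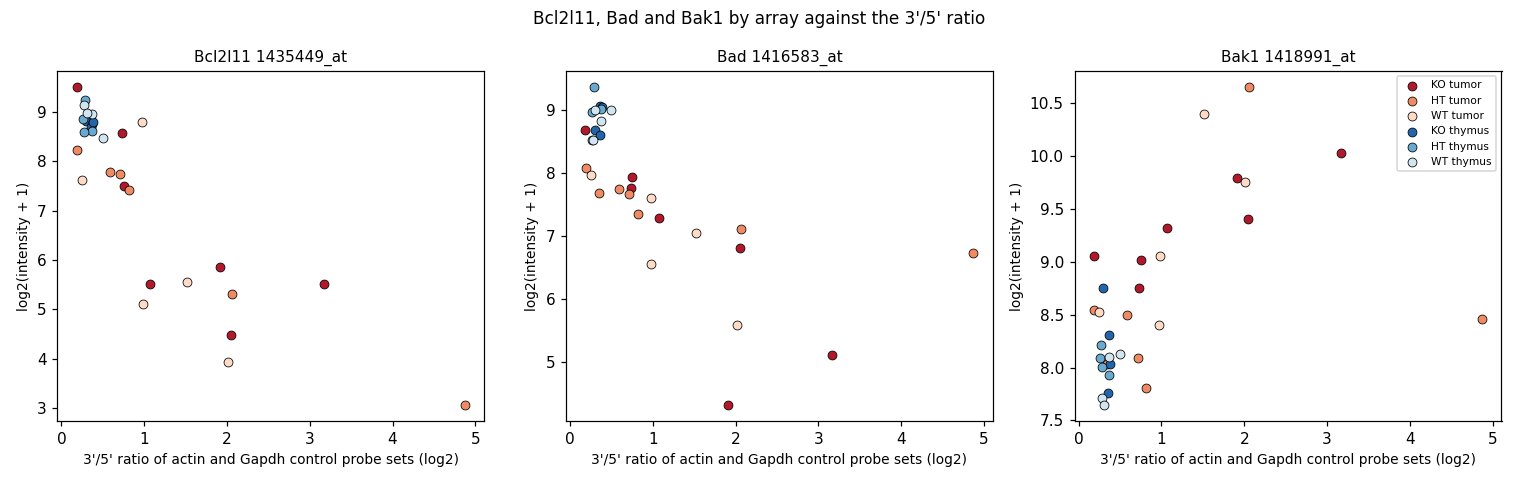
Bcl2l11, Bad and Bak1 values, log2(intensity + 1), of the 31 arrays against the log2 3'/5' ratio of the control probe sets, coloured by genotype and tissue. The thymi crowd between 0.26 and 0.50 on the horizontal axis, and over the tumors Bcl2l11 and Bad decline as the ratio goes up to 4.87. For Bak1 the relation over tumors was positive and did not pass.

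Bik, an endoplasmic reticulum BH3-only protein, differed little between tissues as a mean over the 3 genotypes. Bik 1420362_a_at was 3.86 to 8.35 in tumors and 4.85 to 7.08 in thymi (difference 0.14, limma adjusted p 0.818). Bik 1420363_at gave -0.16 (adjusted p 0.546) and 1449836_x_at 0.03 (0.939), and in all 3 the tissues overlapped. Within genotypes Bik 1420362_a_at differed by 1.22 in WT, -0.10 in HT and -0.70 in KO mice, and none of these passed.

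Of the effectors, Bak1 1418991_at was higher in tumors. Bak1 sits in the mitochondrial membrane of healthy cells and is the pore former itself. It measured 8.76, 9.32 and 10.03 (lowest, median, highest) in KO tumors, with 7.80, 8.46 and 10.66 in HT tumors, while WT tumors measured 8.41, 8.53, 9.05, 9.76 and 10.40. KO thymi measured 7.76, 8.04, 8.31 and 8.75, HT thymi 7.93, 8.01, 8.09 and 8.22, and WT thymi 7.65, 7.71, 8.10 and 8.13. Every KO tumor lay above every thymus, as did 11 of all 19 tumors, and most HT tumors overlapped the thymi. The difference was 0.86 (SE 0.259), or 1.82-fold, with a limma adjusted p of 0.0188. Fitted with the 3'/5' ratio it was 0.64 (adjusted p 0.108), in female arrays alone 0.93 (0.095), and without WT thymus F_01 0.80 (0.0515). Over the 19 tumors this probe set had r of 0.375 with the ratio (adjusted permutation p 0.229 over 20 probe sets). By rank rho was 0.535 (adjusted permutation p 0.0652), and r was 0.753 without the 2 tumors of most distant ratio.

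The second Bak1 probe set, 1425716_s_at, lay near the minimum for testing, at 3.03 to 4.10 in tumors and 3.37 to 4.31 in thymi, and ran the other way. Only 6 tumors lay below every thymus, and the difference was -0.46 (SE 0.125, limma adjusted p 0.0103). Over tumors the Bak1 probe sets had r of -0.355 (adjusted permutation p 0.228; rho -0.312, adjusted p 0.282; r -0.202 without 2). Bok 1417040_a_at, of an effector that can act without other members, was 3.80 to 6.28 in tumors and 4.06 to 4.66 in thymi, and did not pass (difference 0.27, SE 0.228, adjusted p 0.426).

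Bid and Bak1 were the genes with higher RNA in tumors by their brightest probe set. Their promoter windows, 250 bases before to 50 after the start in RefSeq (GRCm38.p6, minus strand, shown 5' to 3'), are printed with their motif matches. Capitals mark the GC box GGGCGG on either strand, the only motif of 4 searched that occurs in either window. Bid lies at chr6:120916775-120917074 and Bak1 at chr17:27028578-27028877.
Bid: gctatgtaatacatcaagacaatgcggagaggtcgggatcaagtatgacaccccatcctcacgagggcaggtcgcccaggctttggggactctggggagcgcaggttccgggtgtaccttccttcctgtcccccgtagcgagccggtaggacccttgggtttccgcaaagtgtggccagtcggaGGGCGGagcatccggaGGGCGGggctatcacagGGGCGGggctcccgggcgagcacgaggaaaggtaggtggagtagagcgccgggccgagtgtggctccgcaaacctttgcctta
Bak1: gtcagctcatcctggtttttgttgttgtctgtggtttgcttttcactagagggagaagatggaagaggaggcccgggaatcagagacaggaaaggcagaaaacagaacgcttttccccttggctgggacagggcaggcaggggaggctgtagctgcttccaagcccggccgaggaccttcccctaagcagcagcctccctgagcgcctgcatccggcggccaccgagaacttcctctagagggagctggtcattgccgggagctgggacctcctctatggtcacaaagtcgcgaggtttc
The Bid window holds 3 GC boxes and the Bak1 window none. The other motifs searched on both strands, the CCAAT box, the TATA box (written TATAAA) and the E-box (written CACGTG), are in neither. Of 32851 promoter windows of this length, 35.7% hold the GC box, 37.4% the CCAAT box, 13.6% the TATA box and 7.15% the E-box. Windows were given for 8 of the 10 genes, and 10 of their 14 windows hold GGGCGG. These are matches of letters and say nothing of binding.

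Within single genotypes fewer probe sets passed. In KO mice none of the 20 did, where 3.47% of all probe sets passed, in HT mice none, where 2.37% passed, and in WT mice 1, where 4.30% passed, Bid 1417045_at with 0.95 (SE 0.256, limma adjusted p 0.0311). An unadjusted p under 0.05 occurred in 5 of the 20 in KO mice and in 17.6% of all probe sets, in 3 of the 20 in HT mice and in 13.5% of all, and in 6 of the 20 in WT mice and in 19.4% of all. The same probe set differed by 0.73 in KO mice (adjusted p 0.0869) and 0.62 in HT mice (0.208). The Bid call in WT mice was lost without any 1 of the 4 WT thymi or of WT tumors 01 and 04, with adjusted p of 0.0585 to 0.0845. Bad 1416583_at differed by -1.82 in KO (adjusted p 0.071), -1.30 in HT (0.289) and -1.63 in WT mice (0.133).

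Whether the tumor difference itself depended on genotype was tested by interaction terms. None of the 20 probe sets passed for KO minus WT, HT minus WT or KO minus HT, and 0% of all probe sets passed in each. Unadjusted p under 0.05 occurred in 2, 0 and 0 of the 20, and in 0.816%, 0.987% and 0.585% of all. Both were Bik, 1420362_a_at with -1.93 (p 0.0254) and 1449836_x_at with -1.21 (p 0.01), each with an adjusted p of 1.

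Between genotypes within thymi, no pro-apoptotic probe set passed in limma fits of the 12 thymus arrays. Over all probe sets 0.0621% passed between KO and WT, 0.00296% between HT and WT and 0.0266% between KO and HT, and 3, 3 and 1 of the 20 had an unadjusted p under 0.05, as did 4.10%, 5.71% and 6.46% of all probe sets. For Pmaip1 1418203_at, KO thymi measured 6.52, 6.68, 6.85 and 7.21 and WT thymi 6.17, 6.37, 6.45 and 6.52, 3 of 4 KO values above the highest WT value and the other level with it, with a difference of 0.44 (SE 0.166, limma adjusted p 1). Bbc3 differed by 0.28 (SE 0.112) and Bcl2l11 1456006_at by -0.37 (SE 0.124) in KO against WT thymi, both with an adjusted p of 1. The mature single-positive marker mean was 9.36 to 9.62 in KO and 8.83 to 9.08 in WT thymi, and its part in these values was not tested. Bad 1416582_a_at measured 7.29, 7.72, 8.08 and 8.24 in KO thymi and 8.05, 8.26, 8.65 and 8.68 in HT thymi, overlapping, with a difference of -0.58 (SE 0.126, limma adjusted p 0.504).

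Bak1 shares chromosome 17 with Stk38, 40 protein-coding genes away. Its probe set 1418991_at differed by 0.32 (SE 0.178, limma adjusted p 1) between KO and WT thymi and by 0.18 (SE 0.448, adjusted p 0.994) between KO and WT tumors.

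Between genotypes within tumors, none of the 20 passed between KO and WT, HT and WT or KO and HT in limma fits of the 19 tumor arrays, and 0% of all probe sets did in each. Unadjusted p under 0.05 occurred in 2, 2 and 0 of the 20 and in 2.98%, 2.32% and 1.08% of all. All 4 were Bik. Bik 1420362_a_at measured 4.75, 5.27 and 6.35 (lowest, median, highest) in KO tumors, with 3.86, 5.20 and 6.32 in HT tumors, and 4.15, 6.81, 6.93, 7.18 and 8.35 in WT tumors. WT tumor 03 lay within the other genotypes and the other 4 WT tumors above every KO and HT tumor. The differences were -1.23 (SE 0.567, limma adjusted p 0.971) for KO and -1.40 (SE 0.567, adjusted p 1) for HT against WT, and those of 1449836_x_at were -0.84 and -0.72 (adjusted p 0.971 and 1).

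**Figure D5:**
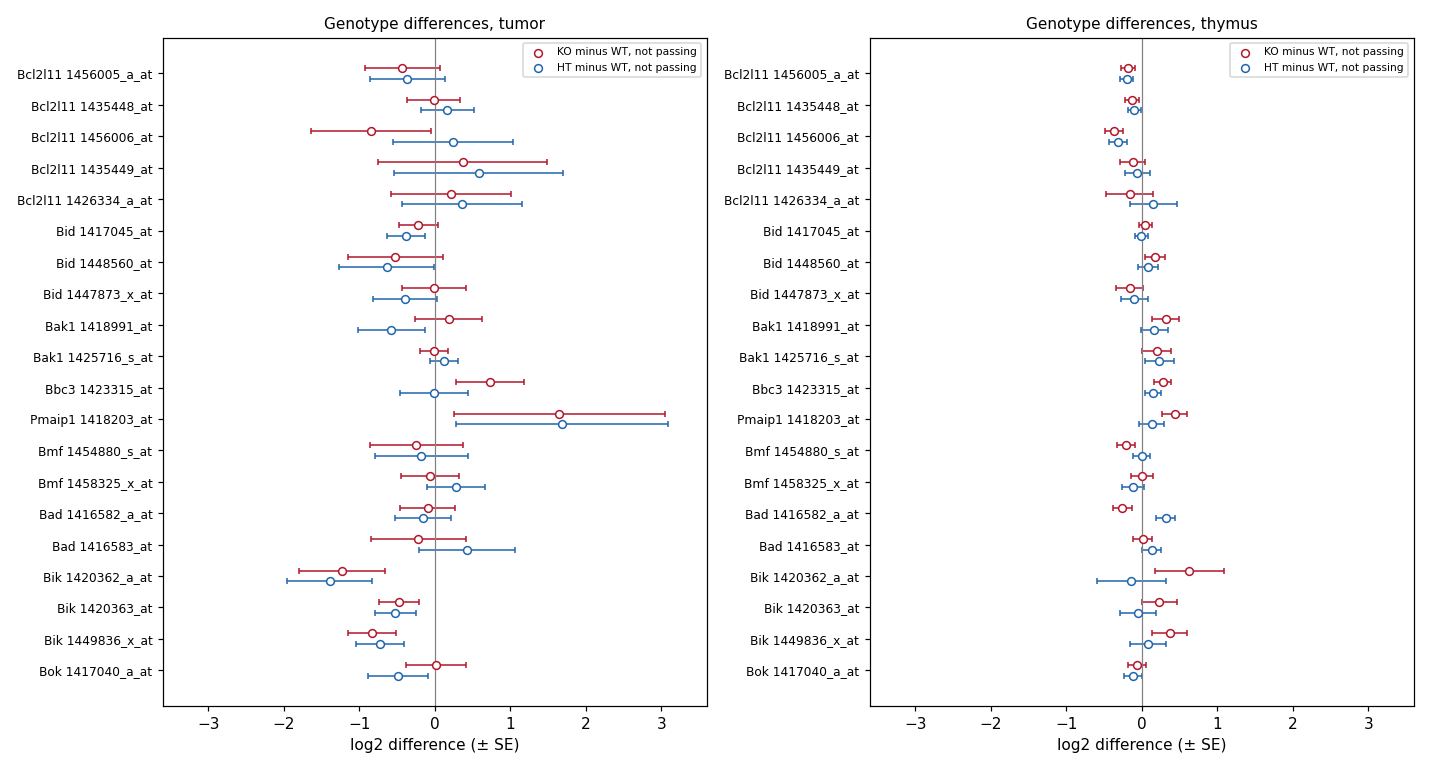
KO minus WT and HT minus WT differences in log2 units, with standard errors, for the 20 tested probe sets, in tumors on the left and thymi on the right. No point has an adjusted p under 0.05, and the error bars in tumors are far wider, up to 1.40 for Pmaip1.

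The tumors varied more than the thymi in nearly every probe set of the family. The same comparison was not made over all probe sets, so this is not shown to be particular to the family. The median within-group SD of Bcl2l11 1456006_at was 1.39 in tumors and 0.119 in thymi, a ratio of 11.7, and that of Pmaip1 was 2.81 in tumors and 0.258 in thymi, a ratio of 10.9. Bak1 1425716_s_at and Bik 1420362_a_at were as variable in thymi, with ratios of 0.842 and 0.953.

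The genes around the family were read through lists of pathway partners, by each gene's brightest probe set, in the tumor comparison. By that rule 10.8% of all genes were higher and 11.8% lower in tumors, and of the 9 measured family members 2 were higher and 0 lower. Of 4 tested anti-apoptotic genes, which hold the effectors shut, 1 was lower and none higher. Bcl2l1, which encodes Bcl-xL, averaged 7.47 ± 0.736 in tumors and 9.86 ± 0.121 in thymi (SD, n = 19 and 12), a difference of -2.35 (SE 0.247, limma adjusted p 1.66e-07). Of 6 other BH3-like genes 1 was higher, Bcl2l14, at 7.83 ± 1.89 in tumors and 4.69 ± 0.210 in thymi (difference 3.61, adjusted p 0.000128).

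Downstream, 1 of 11 apoptosome and caspase genes was higher and 1 lower. They were Endog, a mitochondrial nuclease (1.56, limma adjusted p 0.0239), and Casp6, an executioner caspase (-1.91, 6.88e-06). None of 5 inhibitors of apoptosis passed. In the death receptor pathway, which feeds into Bid, 1 of 7 was higher and 3 lower. Casp8, the protease that cuts Bid, was higher by 0.77 (adjusted p 0.000114), and the receptor gene Fas fell by 1.83 on the log2 scale (5.94e-06), while Tnfrsf1a, a TNF receptor, changed by -1.01 (0.00072) and Cflar, the caspase-8 inhibitor, by -0.62 (0.0316).

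Upstream, 4 of 11 regulators of BH3-only genes were higher in tumors and 3 lower. Egr2 and Nr4a1, genes induced by antigen receptor signals, changed by -3.39 (limma adjusted p 0.00205) and -2.28 (0.00967), and the glucocorticoid receptor gene Nr3c1 by -0.97 (0.0104). The transcription factor genes E2f1 and Foxo1 were higher by 1.10 (0.014) and 1.18 (0.0148). Of 9 genes for anchors and kinases of BH3-only proteins, 3 were higher and 1 lower, among them the dynein light chains that hold Bmf and Bim, Dynll2 higher by 0.95 (0.00231) and Dynll1 lower with a difference of -0.50 (0.00278).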

How the data were processed

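RNA of 19 tumors and 12 thymi was measured on 31 arrays. The deposited values are probe set intensities on a linear scale, normalized by the authors with GCRMA, per the submitters' processing notes, which give no version. Every array had a median of 20.0. The labels name a whole-transcript labelling assay. Arrays limit precision by their number, and no 2 arrays were identical (highest correlation 0.996).

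Log2(value + 1) was taken, probe sets with a mean above the 25th percentile over all arrays were kept (33825 of 45100), and limma 3.58.1 in R 4.3.3 was fitted with group and sex, for all arrays (tumor against thymus) and for each tissue (genotypes). P-values were adjusted over all tested probe sets, threshold 0.05. Fits were tested on simulated data. Platform annotation named 1 gene for 34957 probe sets, several for 932 and none for 9211, and 99.4% of the single-gene entries matched RefSeq by Entrez ID. The members and lists were chosen with earlier results of these data known.

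Named were every member probe set; up to 5 called genes of each pathway list by smallest p; the 3 genes most like each member; and Stk38. Relations over tumors used 100000 permutations. Alternatives changed the filter, pseudocount, covariates, arrays, weights, normalization and probe set choice.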

Additional observations from a re-analysis of the deposited data

Results flagged for a closer look

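Samples were set against the rest of their group for each of the 21 probe sets, and 11 of 126 groups held a value separated from its group by most of the group's range; about 6.3 would be flagged by chance at 1 in 20. All values are log2(intensity + 1).

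KO tumor 05 and HT tumor 06, the arrays with the lowest 3'/5' ratios (0.18 and 0.19), account for 4 of the 11. Bcl2l11 1426334_a_at was 8.85 in KO tumor 05, and 7.12 in HT tumor 06, each the highest of its group. Bmf 1422995_at was 4.83 in KO tumor 05 and 5.03 in HT tumor 06, again the highest. Over the 19 tumors Bcl2l11 1426334_a_at was lower by rank where the ratio was higher (Spearman rho -0.840, adjusted permutation p 0.0004 over 20 probe sets), and Pearson's r did not pass (r -0.498, adjusted p 0.127; r -0.641 without the 2 tumors of most distant ratio). The relation was not computed for Bmf 1422995_at, which lay below the minimum for testing.

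Among other tumors, Bak1 1418991_at was 10.66 in HT tumor 05, above the other HT tumors. Bcl2l11 1456005_a_at was 10.55 in WT tumor 03, below the other WT tumors, and Bad 1416582_a_at was 8.76 in WT tumor 02, above them.

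Among thymi, Bcl2l11 1456005_a_at was 12.16 in KO thymus F_02, the highest of its group, and Bcl2l11 1435448_at was 10.41 in WT thymus M_02, the lowest. Bmf 1454880_s_at was 9.52 in HT thymus F_02, the lowest, and Bmf 1422995_at was 3.75 in WT thymus F_01, the highest.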

How the results depend on the processing

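The tumor against thymus count of 6 passing probe sets was 4 to 9 under the alternatives that kept all probe sets, and 2 with 1 probe set per gene, which tests 9 in place of 20. Bid 1417045_at passed in 12 of 12 settings, Bid 1447873_x_at and Bad 1416583_at in 11 of 11, and Bak1 1425716_s_at in 10 of 10, and all 4 in 31 of 31 fits without 1 array. Bak1 1418991_at passed in 10 of 12 and Bcl2l11 1435449_at in 9 of 11; the exceptions were the 3'/5' ratio as covariate and female arrays (Bcl2l11 -2.28, adjusted p 0.0963). No called difference changed sign. Counts within genotypes moved. In WT mice the count was 1, and 2 with no sex covariate or without the 4 tumors of highest B cell marker mean, 0 in female arrays, 5 with array weights by group and 0 to 2 leaving out 1 array. In HT mice it was 0, and 2 with array weights or without those 4 tumors. In KO mice it was 0, and 1 with no sex covariate, 3 with array weights, 3 without the 4 tumors and 0 to 2 leaving out 1 array. The counts without those 4 tumors include Pmaip1, which the choice fixes, since they are also the 4 tumors of highest Pmaip1. They include Bid 1417045_at in HT and KO mice too (limma adjusted p 0.00793 and 0.00301). Those calls are tied to the choice as well, since the 4 tumors are the lowest for that probe set. The other call gained in KO mice was Bid 1447873_x_at (limma adjusted p 0.0189). There the 4 tumors overlapped the rest but had a lower median, 5.45 against 6.46 in the other tumors. So this call is not free of the choice either. The genotype comparisons within tissue and the interactions gave 0 throughout. The cause of these moves was not tested. The settings with female arrays, with left-out arrays and without the 4 tumors all use fewer samples. The main fits took the same spread of a probe set in every group, while array weights by group let it differ between groups.

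Over all probe sets, the tumor count of 7077 was 10860 with no sex covariate, 3018 in female arrays, 14116 with array weights and 3397 with 1 probe set per gene. With array weights it was 4181 (main value 1174) in KO, 3129 (801) in HT and 8143 (1455) in WT mice; without the 4 tumors 2645, 2169 and 2708; in female arrays 153, 222 and 178. The KO against WT thymus count of 21 ranged from 4 in female arrays to 36 with robust and trended eBayes. The replicate block, possible within tissues and for interactions, gave 0 member probe sets. Same-numbered arrays correlated at -0.231 to 0.293 in thymi (median 0.107, other pairs 0.0297). In tumors they correlated at -0.574 to 0.395 (median -0.105, other pairs -0.016). An array correlated best with one of its own number for 3 of 12 thymi and 0 of 19 tumors. Whether the numbers mark pairs is not given, and the main fits did not pair them.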

Other observations

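The genes whose brightest probe set followed each family member most closely over the 19 tumors were looked up among 14507 genes. These are the highest of many Pearson correlations and are descriptions, with no test. Bcl2l11 1456005_a_at was followed by Golga4 (r 0.859), Prrc2c (0.857) and Dnajc1 (0.856), and Bbc3 by Mark4 (0.862), Rp9 (0.849) and Rxrb (0.843). Bak1 1418991_at was followed by the valyl-tRNA synthetase gene Vars (0.885), Kdm4a (0.866) and Ppp5c (0.847), Bad 1416582_a_at by Iars2 (0.861), Mospd3 (0.812) and Msh5 (0.809), and Bok by Slc38a3 (0.859), Xpo5 (0.823) and Tigd5 (0.818). Bik 1420362_a_at had its closest genes at lower values, Gm34292 (0.742), Gm45351 (0.705) and Cilp2 (0.703).

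For Pmaip1, Bmf and Bid the closest genes had a lower r without the 4 tumors rich in B cell markers, by differing amounts. Pmaip1 had Tdrd7 (r 0.988), Tifa (0.981) and Rras (0.981), values that describe the separation of 4 tumors from 15, and over the other 15 tumors r was 0.768, 0.546 and 0.473. Bmf 1454880_s_at had Abcb8 (0.911), a (0.910, the agouti gene) and Tmem151b (0.910), with 0.655, 0.569 and 0.467 over the 15. Bid 1417045_at had Plxna1 (0.859), Adsl (0.858) and Cyc1 (0.853), the gene of cytochrome c1, with 0.593, 0.629 and 0.779 over the 15.

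Probe sets of the same gene were compared over the 19 tumors in 19 pairs, and 6 pairs had a positive Pearson r with an adjusted permutation p under 0.05. These were 3 of 3 pairs for Bik, 2 of 3 for Bid and 1 of 10 for Bcl2l11, and none of the single pairs of Bad, Bak1 and Bmf. Bik 1420362_a_at with 1420363_at had r of 0.750 (adjusted permutation p 0.0057; Spearman rho 0.753, adjusted p 0.00342; r 0.587 without the 2 most distant tumors). Bid 1417045_at had r of 0.581 with 1448560_at (adjusted p 0.0284; rho 0.539, adjusted p 0.0517; r 0.601 without 2) and 0.587 with 1447873_x_at (adjusted p 0.0284; rho 0.588, adjusted p 0.034; r 0.389 without 2), while 1448560_at with 1447873_x_at had r of -0.0524 (adjusted p 0.829; rho -0.147, adjusted p 0.647; r -0.296 without 2). Bcl2l11 1435449_at with 1426334_a_at had r of 0.593 (adjusted p 0.0175; rho 0.754, adjusted p 0.00342; r 0.635 without 2). The other 9 Bcl2l11 pairs had r of -0.427 to 0.512 with adjusted p of at least 0.0674 (by rank 1435448_at with 1456006_at passed, rho 0.558, adjusted p 0.045), among them 1456005_a_at with 1435449_at at -0.263 (adjusted p 0.353; rho -0.259, adjusted p 0.383; r -0.348 without 2).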
